A study of Homo sapiens with 4 samples.

Results

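The genes described here are 10 phosphatases of the dual-specificity (DUSP) group that act on MAP kinases, taken by name from the 61267 genes of the deposited count table. They were split by role into nuclear, stimulus-inducible enzymes (DUSP1, DUSP2, DUSP4 and DUSP5), cytoplasmic enzymes specific for ERK (DUSP6 and DUSP7), enzymes that prefer JNK and p38 (DUSP8, DUSP10 and DUSP16) and the small atypical phosphatase DUSP14. No threshold on measured values entered the choice, but it was made with earlier results of these data known. All 10 were found in the table. Of these, 8 had enough reads to be tested, while DUSP4 and DUSP6 did not.

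MAP kinases are switched on by phosphorylation of a threonine and a tyrosine in their activation loop, and dual-specificity phosphatases switch them off by removing both phosphates. Transcription of several of these phosphatases is itself turned on by active ERK, JNK or p38, which closes a negative feedback loop. In B lymphocytes ERK lies downstream of the B-cell receptor, and DUSP2 was named for its appearance in activated lymphocytes.

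The cells were SU-DHL-2, an established human line from a diffuse large B-cell lymphoma, labelled wild type and of lymph node origin and grown in medium with fetal serum. The treated group received Spautin-1, which blocks the deubiquitinases USP10 and USP13, at 10 µM for 36 h (2 libraries), and the vehicle group received solvent (2 libraries). No label says that the libraries are of separate cultures. The p-values therefore reflect no more than the spread among these 4 samples, which may be technical, and all of them are of 1 cell line.

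Totals of the raw read counts lay between 34115420 and 38362526 per library. Low counts were mostly even: of the genes with 1 to 20 reads, 74.3% to 76.8% had an even count in each library, against 52.5% to 53.2% of the genes with 1000 reads or more. Whether both mates of a read pair were counted was not stated; if so, the reads given for each gene stand for fewer independent fragments. The defining B-cell markers were present, with a summed level of the 10 markers at 1230 and 1203 CPM (read counts scaled to a common library size) in the Spautin-1 libraries and 892 and 804 CPM in the vehicle libraries, and 6 of the 10 rose. Any part of this difference in the DUSP results was not tested. Markers of T cells summed to 0.96 to 1.42 CPM, those of monocytes and macrophages to 1.29 to 1.96 CPM, and those of fibroblasts and endothelium to 0.749 to 1.55 CPM over the 4 libraries, with TRAC, COL3A1 and CDH5 at 0 reads throughout. The difference between the vehicle libraries was related to the GC content of the transcripts (Pearson's r = -0.254 across the genes tested that have a GC value, which are not independent replicates), and that between the Spautin-1 libraries was not visibly so (r = -0.0144). A correction for it changed no call of the 10 members.

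The promoters of these genes differ in sequence. The RefSeq table used here (GRCh38.p14, from 250 bases before to 50 bases after the annotated start of transcription) matched 8 of the 10 members, all but DUSP4 and DUSP5. Sequences of 4 of these are printed. DUSP1, DUSP8 and DUSP2 were picked because they rose and carry a capitalised motif. DUSP7 was picked because it lay lower in the Spautin-1 libraries and carries none of them. The choice thus used both direction and motif, so the printed contrast shows no link between them, and none was tested. DUSP16, not printed, also rose and carries none of these motifs. DUSP10, not printed either, rose with a half-site at only 1 of its starts. Capitals mark the cAMP response element TGACGTCA, its half-site TGACG (or CGTCA, its reverse complement, which the full element contains) and the E-box CACGTG. All lines run 5′ to 3′ on the minus strand, on which the 4 genes lie.
DUSP1, chr5:172771146-172771445: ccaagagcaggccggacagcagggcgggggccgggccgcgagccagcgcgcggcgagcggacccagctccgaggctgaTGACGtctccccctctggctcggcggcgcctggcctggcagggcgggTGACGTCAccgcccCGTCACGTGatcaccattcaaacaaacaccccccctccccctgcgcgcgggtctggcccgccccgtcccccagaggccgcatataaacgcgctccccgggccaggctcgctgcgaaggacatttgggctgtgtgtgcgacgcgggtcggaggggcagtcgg
DUSP8, chr11:1572222-1572521: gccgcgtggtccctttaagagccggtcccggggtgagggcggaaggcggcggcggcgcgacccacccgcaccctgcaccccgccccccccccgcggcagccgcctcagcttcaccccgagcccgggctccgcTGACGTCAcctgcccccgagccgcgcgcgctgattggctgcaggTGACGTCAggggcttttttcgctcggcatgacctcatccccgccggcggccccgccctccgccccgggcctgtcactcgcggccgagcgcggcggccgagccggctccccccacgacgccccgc
DUSP2, chr2:96145391-96145690: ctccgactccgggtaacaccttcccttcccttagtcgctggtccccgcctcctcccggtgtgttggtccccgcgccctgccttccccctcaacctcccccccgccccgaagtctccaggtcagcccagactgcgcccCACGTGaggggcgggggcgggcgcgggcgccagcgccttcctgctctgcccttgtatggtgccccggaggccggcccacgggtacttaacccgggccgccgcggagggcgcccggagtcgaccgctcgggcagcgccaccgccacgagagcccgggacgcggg
DUSP7, chr3:52056522-52056821: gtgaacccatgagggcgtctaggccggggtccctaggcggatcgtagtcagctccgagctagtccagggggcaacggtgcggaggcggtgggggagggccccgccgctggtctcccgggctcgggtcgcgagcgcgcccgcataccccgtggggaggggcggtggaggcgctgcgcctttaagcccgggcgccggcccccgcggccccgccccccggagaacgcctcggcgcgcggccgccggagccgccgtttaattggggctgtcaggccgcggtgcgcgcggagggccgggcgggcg

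The DUSP1 window held 1 full cAMP response element, which starts 125 bases before the transcription start, 2 further half-sites apart from it, 1 E-box and a TATA box (TATAAA) 30 bases before the start. The DUSP8 window held 2 full elements, at 118 and 74 bases before the start. Of 35116 promoter windows in the table, 1.85% held the full element, 24.6% a half-site, 7.26% the E-box and 11.5% the letters TATAAA on either strand. DUSP2 had the E-box alone of these. Of the 2 starts listed for DUSP10, 1 held a single half-site. DUSP6, DUSP7, DUSP14 and DUSP16 held no match to TGACG or CACGTG on either strand. The AP-1 motif TGANTCA, found in 7.71% of all windows, and the serum response CArG box, found in 1.29%, were in no window of the 8 members. GC boxes (GGGCGG on either strand, 45.0% of all windows) were present in every member window but that of DUSP6. These are letter matches and do not show which factor binds.

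The nuclear inducible phosphatases DUSP5, DUSP2 and DUSP1 all rose with Spautin-1, and the fold changes of DUSP5 and DUSP2 were the highest of the 8 genes tested, while the remaining nuclear gene, DUSP4, had no read in any library. DUSP5 binds ERK tightly and holds it inactive in the nucleus. It (chromosome 10, 110497907 to 110511533, GRCh38) had 219 and 315 reads in the Spautin-1 libraries and 20 and 26 reads in the vehicle libraries. These are 5.84 and 9.09 CPM in the Spautin-1 libraries and 0.576 and 0.673 CPM in the vehicle libraries, so the groups lay far apart and the Spautin-1 libraries also differed from each other 1.56-fold. The fold change was 11.9 (log2 fold change 3.57 ± 0.32, SE; n = 2 each; edgeR quasi-likelihood adjusted p = 1.78e-05).

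DUSP2, which acts on ERK and p38 in the nucleus of activated lymphocytes, is encoded on chromosome 2 (96143169 to 96145440). It stood at 10.9 and 13.999 CPM in the Spautin-1 libraries (408 and 485 reads) and at 2.19 and 2.61 CPM in the vehicle libraries (76 and 101 reads). The groups did not overlap, the lowest Spautin-1 value being 4.16 times the highest vehicle value. The increase was 5.16-fold (log2 fold change 2.37 ± 0.22; edgeR adjusted p = 2.59e-05).

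DUSP1, the prototype of the family and a phosphatase of p38, JNK and ERK, lies on chromosome 5 (172768096 to 172771195). It had 3.36 and 4.10 CPM in the Spautin-1 libraries (126 and 142 reads) and 1.21 and 2.33 CPM in the vehicle libraries (42 and 90 reads). The groups did not overlap, but the vehicle libraries differed from each other 1.93-fold, nearly as much as the groups did. DUSP1 rose 2.09-fold (log2 fold change 1.07 ± 0.34; edgeR adjusted p = 0.0393). Omitting the first Spautin-1 library ended that call (log2 fold change 1.21, edgeR adjusted p = 0.0714), as did omitting the second (0.93, 0.204) or the first vehicle library (0.68, 0.117). Omitting the second vehicle library gave 1.62 (edgeR adjusted p = 0.000266).

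DUSP4, a nuclear phosphatase of ERK and JNK (chromosome 8, 29333064 to 29350684), was at 0 reads in all 4 libraries. A count of 0 allows up to 3 reads per library, at most 0.0866 CPM, a limit that covers counting error only. No fold change can be given for it.

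**Figure D1:**
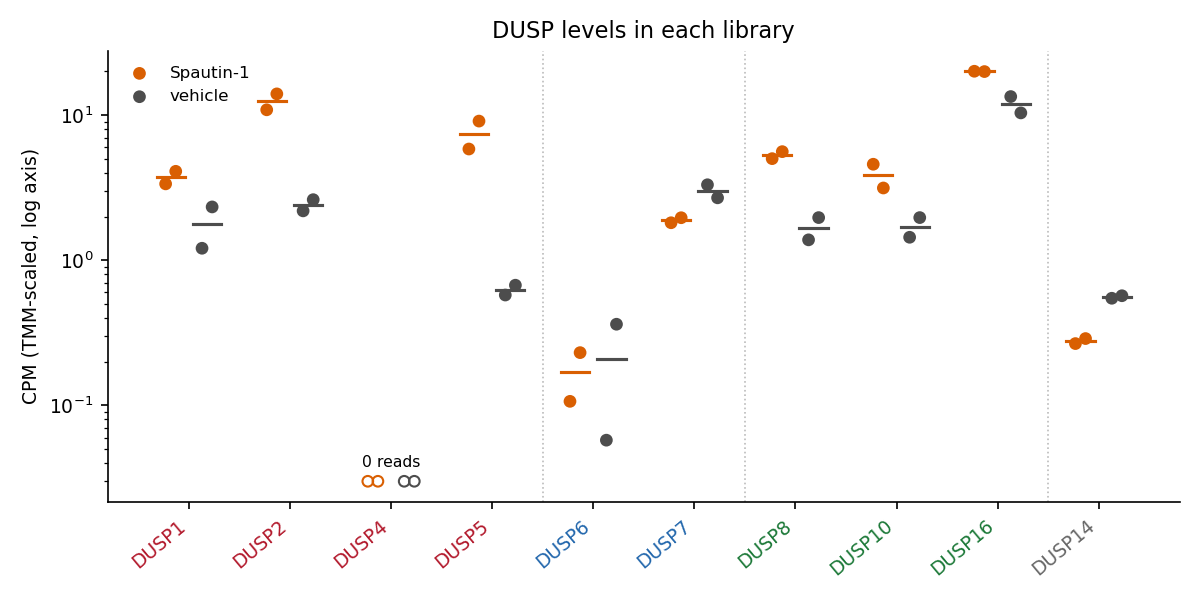
Level of each of the 10 DUSP genes in CPM (TMM-scaled, log axis) in the 2 Spautin-1 and 2 vehicle libraries; points are libraries, short bars are group means, gene names are coloured by class (nuclear red, ERK-specific blue, JNK and p38 green, DUSP14 grey), and open circles under "0 reads" stand for DUSP4, which has no place on a log axis. DUSP5 sits at 5.84 and 9.09 CPM with Spautin-1 and at 0.576 and 0.673 CPM with vehicle, the widest gap in the plot, whereas the points of DUSP6 overlap.

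Neither of the ERK-specific cytoplasmic phosphatases was called in the comparison. DUSP7 (chromosome 3, 52048919 to 52056571) had 1.81 and 1.96 CPM in the Spautin-1 libraries (68 reads in each) and 3.31 and 2.69 CPM in the vehicle libraries (115 and 104 reads). Both Spautin-1 libraries lay below both vehicle libraries. Its log2 fold change of -0.67 ± 0.30 did not pass the test (edgeR adjusted p = 0.129, unadjusted 0.043), and leaving out single libraries gave values between -0.81 and -0.51. DUSP6 (chromosome 12, 89347235 to 89352501), the classical cytoplasmic feedback inhibitor of ERK, was barely detected, with 4 and 8 reads in the Spautin-1 libraries and 2 and 14 reads in the vehicle libraries. The groups overlapped, and DUSP6 fell under the filter on low counts. When it was tested without that filter, its log2 fold change was -0.34 (edgeR adjusted p = 0.895). Its SE in that fit was 1.19 on the log2 scale, so all but a large difference in DUSP6 could go undetected at this depth. DUSP6 is also the only member whose exons overlap another annotated gene, on the opposite strand, and no source used here says whether reads were counted by strand.

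The phosphatases that prefer JNK and p38 all rose, by less than DUSP2 and DUSP5. DUSP8 (chromosome 11, 1554051 to 1572271), which binds JNK and p38, had 5.01 and 5.60 CPM in the Spautin-1 libraries (188 and 194 reads) and 1.38 and 1.97 CPM in the vehicle libraries (48 and 76 reads). The lowest Spautin-1 library was 2.55 times the highest vehicle library. DUSP8 rose 3.15-fold (log2 fold change 1.66 ± 0.27; edgeR adjusted p = 0.00134).

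DUSP10, known for restraining JNK and p38 in immune cells (chromosome 1, 221701424 to 221742089), had 4.58 and 3.15 CPM in the Spautin-1 libraries (172 and 109 reads) and 1.44 and 1.97 CPM in the vehicle libraries (50 and 76 reads). The groups did not overlap, and Spautin-1 replicate 2 was the closer of its pair to the vehicle libraries. The increase was 2.26-fold (log2 fold change 1.18 ± 0.31; edgeR adjusted p = 0.0178). It was no longer called when the first Spautin-1 library was omitted (log2 fold change 0.89, edgeR adjusted p = 0.192), and was called at 0.98 to 1.43 when any of the other 3 libraries was left out.

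DUSP16 (chromosome 12, 12473282 to 12562863), a JNK-directed phosphatase that shuttles between nucleus and cytoplasm, had the most reads of the group, with 752 and 691 in the Spautin-1 libraries and 466 and 400 in the vehicle libraries. In CPM this was 20.04 and 19.9 in the Spautin-1 libraries and 13.4 and 10.4 in the vehicle libraries. The Spautin-1 libraries nearly coincided, and the vehicle libraries lay apart and below. DUSP16 rose 1.68-fold (log2 fold change 0.75 ± 0.17; edgeR adjusted p = 0.00764). Omitting the first Spautin-1 library (0.76, edgeR adjusted p = 0.0589) or the second (0.77, 0.0642) ended the call, with almost the same fold change each time.

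DUSP14 (chromosome 17, 37489891 to 37513501), a small phosphatase that lacks the kinase-binding domain of the others and has been tied to T-cell receptor signalling, had 10 reads in each Spautin-1 library and 19 and 22 reads in the vehicle libraries, or 0.267 and 0.289 CPM in the Spautin-1 libraries and 0.547 and 0.569 CPM in the vehicle libraries. Both Spautin-1 libraries lay below both vehicle libraries. Its log2 fold change of -1.0 ± 0.67 did not pass the test (edgeR adjusted p = 0.317).

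Of the 8 members tested, 6 rose and 0 fell by the quasi-likelihood test of edgeR at an adjusted p of 0.05. Of all 18368 genes tested, 22.0% were called in either direction: 11.5% of the genes tested were higher and 10.5% lower in the Spautin-1 libraries. At an unadjusted edgeR p under 0.05, 6 members were higher and 1, DUSP7, was lower, and DESeq2 and limma-voom each gave 6 higher and 0 lower. Both Spautin-1 libraries lay above both vehicle libraries in 6 of the 8 members and below them in 2, against 30.8% above and 30.6% below among all genes tested, 61.4% in all. The median log2 fold change was 1.12 over the 8 members and -0.01 over all genes tested. Because the members were chosen with earlier results of these data known, these comparisons are no independent test of the group. All 8 had at least 10 reads in each of the 4 libraries. The filter, however, works on counts scaled by library size. DUSP14, with 10 reads in each Spautin-1 library, lay near its limit there, and under it in the larger of these 2 libraries. The Spautin-1 libraries alone would not have passed the filter. DUSP14 therefore passed only through the vehicle group, where it was higher, and its place below is no support for a decrease. For a single value, the smallest p that an exact permutation test can reach with 2 libraries on each side is 0.333. In bulk samples like these, fewer cells that make an mRNA and less of it per cell cannot be told apart.

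**Figure D2:**
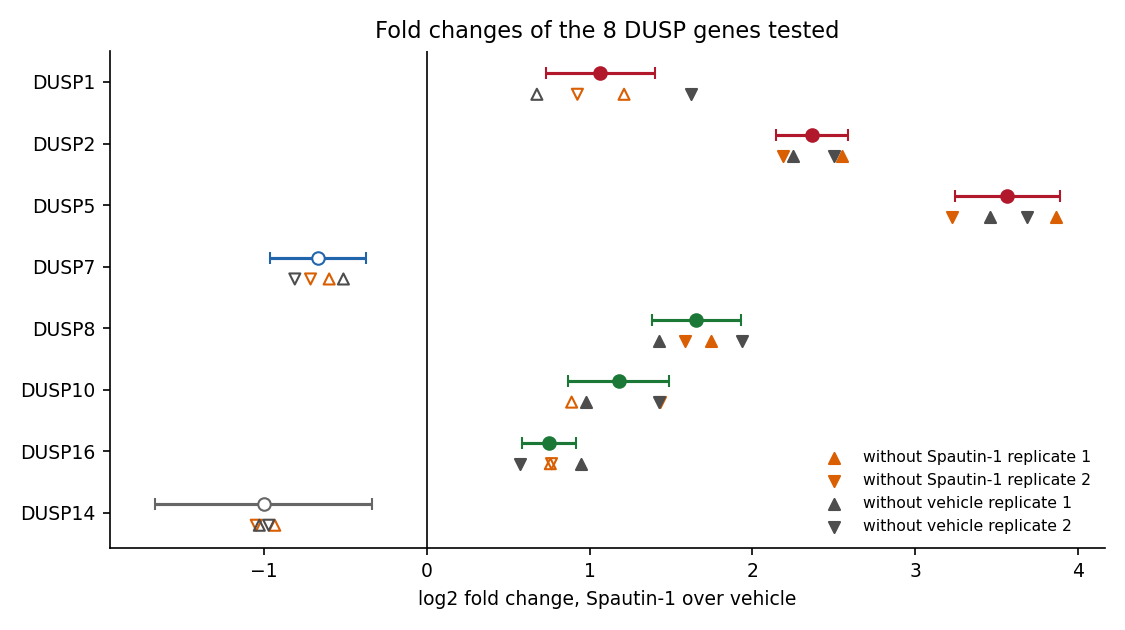
Log2 fold change of Spautin-1 over vehicle for the 8 DUSP genes tested; circles with bars are the fit to all 4 libraries ± SE, coloured by class (nuclear red, ERK-specific blue, JNK and p38 green, DUSP14 grey), triangles are fits that each leave out 1 library (orange a Spautin-1, grey a vehicle library), and open symbols have an edgeR adjusted p of 0.05 or more. DUSP2, DUSP5 and DUSP8 are filled throughout, DUSP1, DUSP10 and DUSP16 turn open in at least 1 fit, and DUSP7 and DUSP14 are open in all.

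The classes differed in how much each added to the family. On a per-length scale (TPM, counts per exonic length scaled to the same total in each library, computed from the counts and the exonic lengths), the 10 genes summed to 40.8 and 49.7 TPM in the Spautin-1 libraries and to 16.2 and 17.4 TPM in the vehicle libraries, a ratio of means of 2.69. The nuclear inducible genes accounted for 25.3 and 34.7 TPM in the Spautin-1 libraries and for 5.84 and 7.91 TPM in the vehicle libraries. The JNK and p38 genes summed to 14.3 and 13.6 TPM in the Spautin-1 libraries and to 7.94 and 7.24 TPM in the vehicle libraries. Both sums were higher with Spautin-1 in every library, by 4.37 times for the nuclear genes and 1.84 times for the JNK and p38 genes in the ratio of means. Most of the nuclear sum with Spautin-1 came from DUSP2 and DUSP5, with means of 17.2 and 7.87 TPM. The classes overlapped gene by gene: DUSP1 rose 2.09-fold, less than DUSP8 (3.15-fold) and DUSP10 (2.26-fold).

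The ERK-specific cytoplasmic genes summed to 0.914 and 1.10 TPM in the Spautin-1 libraries and to 1.78 and 1.62 TPM in the vehicle libraries. Most of this sum was DUSP7, which was not called. As a share of the family's summed TPM, the nuclear genes made up 62.0% and 69.8% in the Spautin-1 libraries and 36.0% and 45.4% in the vehicle libraries. The share of the ERK-specific genes was 2.24% and 2.20% in the Spautin-1 libraries and 10.98% and 9.29% in the vehicle libraries. The JNK and p38 genes made up 35.1% and 27.3% in the Spautin-1 libraries and 48.9% and 41.5% in the vehicle libraries. The shares of the 3 classes did not overlap between the groups. These shares add up to a whole, so they are not independent of each other, and their differences were not tested.

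**Figure D3:**
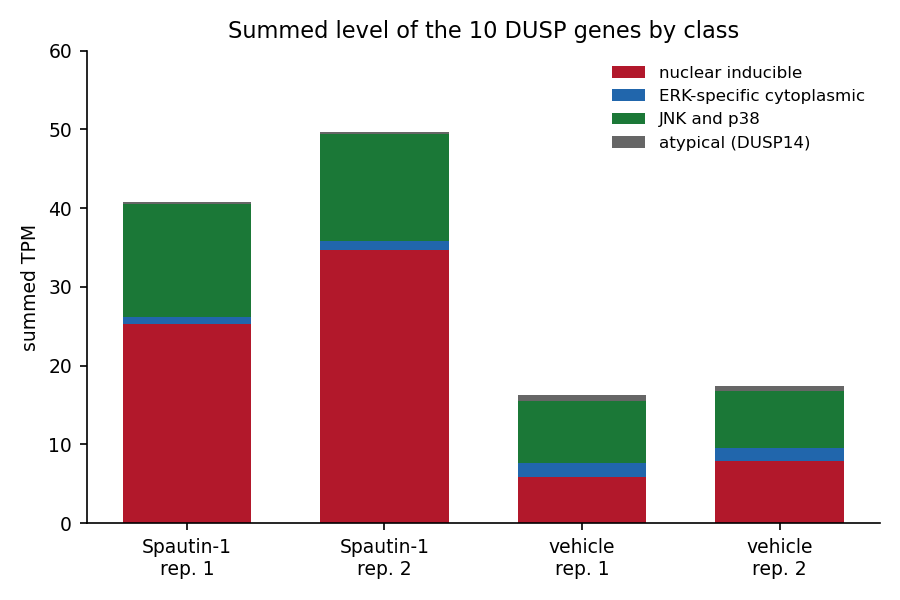
Summed TPM of the DUSP genes in each library, stacked by class (4 nuclear inducible, 2 ERK-specific cytoplasmic, 3 JNK and p38 genes and DUSP14), with the Spautin-1 libraries on the left. The red nuclear part is 25.3 and 34.7 TPM with Spautin-1 and 5.84 and 7.91 TPM with vehicle, and the blue ERK-specific part is thinner with Spautin-1.

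The order of the members by level was not the same in both groups. In the Spautin-1 libraries DUSP2 led at 17.2 ± 3.35 TPM (mean ± SD, n = 2), followed by DUSP5 at 7.87 ± 2.56 TPM and DUSP16 at 7.47 ± 0.10 TPM, which overlapped each other, and by DUSP1 at 4.94 ± 0.78 TPM. DUSP10 at 3.63 ± 0.90 TPM and DUSP8 at 2.85 ± 0.27 TPM overlapped as well, and DUSP7, DUSP14, DUSP6 and DUSP4 were below 1 TPM. In the vehicle libraries DUSP16 led at 4.87 ± 1.04 TPM, ahead of DUSP2 at 3.62 ± 0.34 TPM and DUSP1 at 2.54 ± 1.06 TPM.

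DUSP1 and DUSP10 (1.75 ± 0.33 TPM) overlapped in the vehicle libraries, as did DUSP10 and DUSP7 (1.55 ± 0.27 TPM), and DUSP8, DUSP5 and DUSP14 followed at 0.979 ± 0.21, 0.716 ± 0.056 and 0.666 ± 0.0022 TPM. DUSP5 was number 2 of the 10 with Spautin-1 and number 7 with vehicle. Among all genes tested, DUSP2 was at percentile 74.5 of TPM in the Spautin-1 libraries and 41.8 in the vehicle libraries, and DUSP5 was at percentile 59.6 in the Spautin-1 libraries and 14.6 in the vehicle libraries.

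Sequence features of the mRNAs also differed between members. The pentamer ATTTA, the core of AU-rich elements that mark many short-lived mRNAs, occurred 4 times in the 3′ untranslated region (UTR) of DUSP1, 3 times in that of DUSP2, 4 times in DUSP8, 3 times in DUSP10, 3 times in DUSP14, 5 times in DUSP16 and 6 times in DUSP4 (GENCODE 29, the transcript with the longest coding part). DUSP6 had 1 and DUSP5 and DUSP7 had 0. Per kilobase this was 5.95 in DUSP1, 4.57 in DUSP2, 4.75 in DUSP14 and 3.04 in DUSP10, against a median of 1.54 over 17585 protein-coding genes. DUSP16 at 1.91, DUSP8 at 1.62 and DUSP4 at 1.51 per kilobase lay near that median, and DUSP6 at 0.49 lay below it. DUSP5, the member with the highest fold change, had no pentamer in a 3′ UTR of 1118 bases.

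Overlapping pairs of the pentamer, with the letters ATTTATTTA, were found in DUSP1, DUSP8 and DUSP10. DUSP4 was left out of this search. The members with a pair rose, but so did DUSP2, DUSP5 and DUSP16, in which no pair was found. A link between the pairs and the increase was not tested. The pairs are shown because proteins of the ZFP36 family bind AU-rich elements. Whether they bind these stretches, which differ in the bases around the pair, was not tested. Capitals mark the pentamers, and the 30 bases of each run 5′ to 3′ along the mRNA.
DUSP1 (chromosome 5), bases 92 to 121 of the 3′ UTR: ggctggtccttATTTATTTAacttcacccg
DUSP8 (chromosome 11), bases 117 to 146: ttcgattttttATTTATTTAagctgttcat
DUSP10 (chromosome 1), bases 882 to 911: aagaaaaaaaaATTTATTTAaaaatatttt

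The genes most like a member across the 4 libraries were taken by the smallest Euclidean distance between centred log2 CPM values, among the 9092 genes averaging 5 CPM or more. Nearest to DUSP5 were RGS2, a regulator of G-protein signalling (distance 0.365, log2 fold change 3.40), the interleukin subunit gene IL23A (0.464, 3.41) and the deubiquitinase gene OTUD1 (0.540, 3.14). Nearest to DUSP8 were BBC3, which encodes the pro-apoptotic protein PUMA (distance 0.0987, log2 fold change 1.69), the prostaglandin receptor gene PTGER4 (0.155, 1.78) and the transcription factor gene KLF6 (0.192, 1.48). The 4 libraries form 2 groups, so a gene with a like fold change lies close by this measure. No ERK-specific member was called, so none was taken for that class.

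Of 16 further dual-specificity family members listed, 9 were tested, 1 rose and 0 fell (median log2 fold change 0.14). DUSP9, another ERK-specific cytoplasmic enzyme, named here after its values were seen, was not tested, with 8 and 0 reads in the Spautin-1 libraries and 4 and 2 reads in the vehicle libraries. The riser was DUSP11, known mainly as a phosphatase of RNA 5′ ends rather than of MAP kinases, at 13.3 and 12.3 CPM in the Spautin-1 libraries and 4.52 and 8.10 CPM in the vehicle libraries (2.02-fold, edgeR adjusted p = 0.0105). It was not called when the first Spautin-1 library was omitted (edgeR adjusted p = 0.054). Omitting the first vehicle library gave 2 higher genes in this list, and the GC offset gave 2 as well.

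The counts for the kinase cascades that these phosphatases act on, and for the other lists, are to be read against the 11.5% higher and 10.5% lower among all genes tested. These shares hold for the fit to all 4 libraries only. Over all genes, fewer were called when a Spautin-1 library was omitted and more when a vehicle library was. A like movement of the list counts in those fits is therefore no trait of a list. In the ERK cascade 5 of 20 tested genes rose and 2 fell (median log2 fold change 0.10). RASGRP1, an exchange factor that loads RAS in lymphocytes, was at 47.0 and 52.1 CPM in the Spautin-1 libraries and at 32.1 and 21.5 CPM in the vehicle libraries (1.85-fold, edgeR adjusted p = 0.0034). RASGRP3, of the same family, rose 1.37-fold (edgeR adjusted p = 0.0203), a call lost when either Spautin-1 library was omitted (0.12 and 0.206). The RAS-related GTPase gene RRAS2 fell to 83.0 and 88.8 CPM in the Spautin-1 libraries, against 134 and 142 CPM in the vehicle libraries (edgeR adjusted p = 0.000964). Omitting Spautin-1 library 1, Spautin-1 library 2, vehicle library 1 and vehicle library 2, in that order, left 1, 2, 6 and 5 genes of the ERK cascade called higher and 2, 1, 4 and 2 lower.

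In the JNK cascade 3 of 17 genes rose and 1 fell (median 0.19). MAPK10, which encodes the JNK isoform best known from neurons, was at 31.6 and 31.1 CPM in the Spautin-1 libraries and at 7.69 and 8.85 CPM in the vehicle libraries (3.79-fold, edgeR adjusted p = 7.57e-06). The groups were far apart, and its exons overlap those of ARHGAP24 and PTPN13 on the opposite strand. The mixed-lineage kinase gene MAP3K10 rose 2.49-fold (edgeR adjusted p = 0.000824) and its relative MAP3K11 fell to 16.7 and 13.2 CPM in the Spautin-1 libraries, against 24.7 and 33.7 CPM in the vehicle libraries (edgeR adjusted p = 0.00271). MAP3K11 was not called when the second Spautin-1 library was omitted (edgeR adjusted p = 0.0576). Leaving out the 4 libraries in the same order gave 2, 2, 5 and 3 higher and 1, 0, 2 and 2 lower genes.

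In the p38 cascade 2 of 19 genes rose and 1 fell (median 0.09). MAPKAPK2, a kinase that p38 activates, was at 28.2 and 27.3 CPM in the Spautin-1 libraries and at 16.99 and 15.7 CPM in the vehicle libraries (1.70-fold, edgeR adjusted p = 0.00253). The p38 isoform gene MAPK13 rose 1.67-fold (edgeR adjusted p = 0.0327) and RPS6KA4, a chromatin-acting kinase below p38, had a log2 fold change of -0.74 (edgeR adjusted p = 0.023). Both calls were lost when either Spautin-1 library was omitted (edgeR adjusted p of 0.0747 to 0.223). The counts of called genes were 2, 1, 5 and 3 higher and 0, 0, 2 and 2 lower in the 4 fits.

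Of 22 tested genes for other inhibitors of RAS or MAP kinases, 1 rose and 2 fell (median -0.01). The phosphatase gene PPM1A rose 1.46-fold (edgeR adjusted p = 0.00671), the RAS GTPase-activating protein gene RASA1 had a log2 fold change of -0.69 (edgeR adjusted p = 0.0074), and PTPN7, which encodes a tyrosine phosphatase of ERK and p38 in blood cells, one of -0.59 (edgeR adjusted p = 0.0304). Each of these calls was lost on omitting either Spautin-1 library (adjusted p of 0.0612 to 0.247), and that of PTPN7 also without the second vehicle library (0.0669). The 4 fits gave 0, 0, 1 and 2 higher and 0, 0, 3 and 2 lower genes. With the GC offset 3 were higher and 4 lower. SPRY4, a Sprouty inhibitor of RAS signalling and a textbook ERK output chosen here after its values were seen, had 26 and 10 reads in the Spautin-1 libraries and 4 and 2 reads in the vehicle libraries and was not called (edgeR adjusted p = 0.0599).

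Of 12 tested genes known as ERK outputs, 4 rose and 1 fell (median 0.13). MYC was at 125 and 129 CPM in the Spautin-1 libraries and at 69.4 and 88.1 CPM in the vehicle libraries (1.61-fold, edgeR adjusted p = 0.00255). FOS was low throughout and rose, with 90 and 84 reads in the Spautin-1 libraries and 8 and 24 reads in the vehicle libraries (edgeR adjusted p = 0.00317). The immediate early gene IER2 had a log2 fold change of -0.59 (edgeR adjusted p = 0.0308) and was not called when either Spautin-1 library or the second vehicle library was omitted (edgeR adjusted p of 0.0734 to 0.272). The 4 fits gave 2, 4, 4 and 5 higher and 0, 0, 1 and 0 lower genes. EGR1, another early ERK output that was also named after its values were seen, had 8 reads in each Spautin-1 library and 8 and 10 reads in the vehicle libraries, under the filter.

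**Figure D4:**
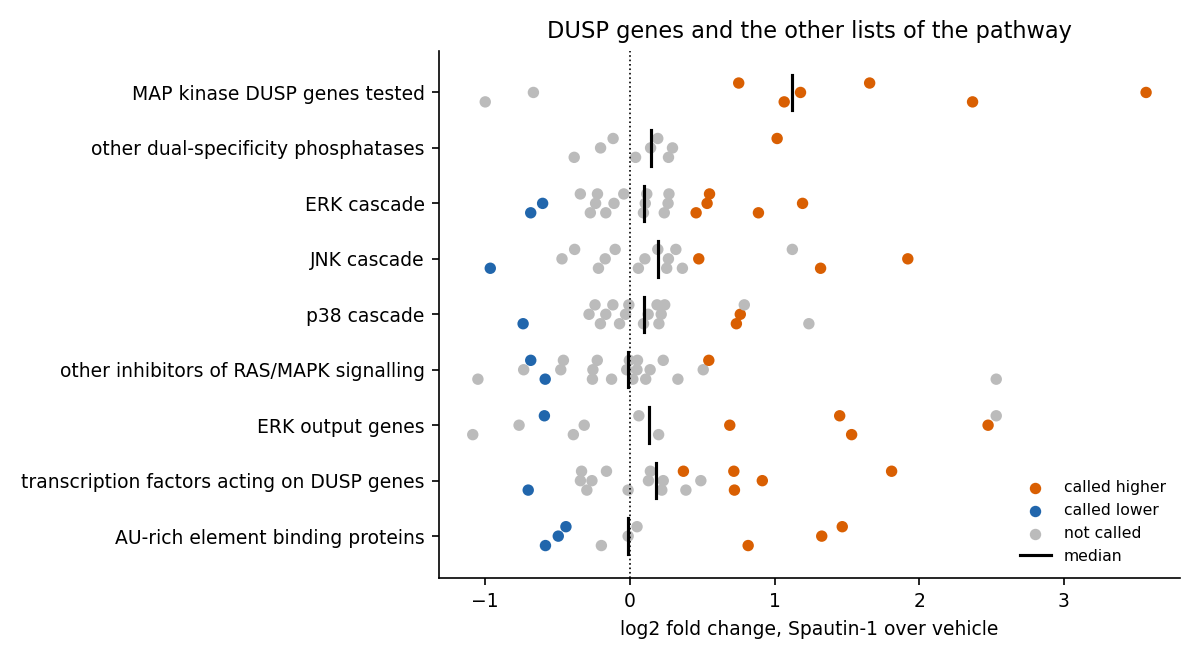
Log2 fold change of Spautin-1 over vehicle for every tested gene of the DUSP group and of 8 other lists of the pathway; each point is a gene, orange if called higher and blue if called lower by edgeR (adjusted p under 0.05), and the bar is the list's median. The median of the 8 DUSP genes is 1.12, and those of the other lists lie between -0.01 and 0.19.

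Among transcription factors described at promoters of DUSP genes, 5 of 18 rose and 1 fell (median 0.18). ATF3, a stress-induced factor that binds cAMP response elements like those capitalised in the DUSP1 and DUSP8 promoters, was at 111 and 119 CPM in the Spautin-1 libraries and at 35.6 and 30.1 CPM in the vehicle libraries (3.503-fold, edgeR adjusted p = 2.79e-06). ETS1, an effector of ERK in lymphocytes, rose 1.65-fold (edgeR adjusted p = 0.000542). USF1, which binds E-boxes, had a log2 fold change of -0.70 (edgeR adjusted p = 0.00597), a call lost when either Spautin-1 library was omitted (0.0757 and 0.0975). The 4 fits gave 4, 4, 8 and 5 higher and 0, 0, 3 and 1 lower genes. Whether any of these factors acted on a DUSP gene was not tested.

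Proteins that bind AU-rich elements changed in opposite directions. Of 9 genes, 3 rose, all of the ZFP36 family whose proteins destabilise mRNAs with such elements, and 3 fell (median -0.01). ZFP36L1 was at 55.3 and 57.6 CPM in the Spautin-1 libraries and at 22.8 and 22.2 CPM in the vehicle libraries (2.51-fold, edgeR adjusted p = 2.59e-05). ZFP36 was at 12.9 and 13.1 CPM in the Spautin-1 libraries and at 3.74 and 5.64 CPM in the vehicle libraries (2.77-fold, edgeR adjusted p = 0.000609). HNRNPD, which encodes the AU-rich element binding protein AUF1, had a log2 fold change of -0.44 (edgeR adjusted p = 0.00557), lost when the second Spautin-1 library was omitted (0.0696). The 4 fits gave 2, 2, 3 and 3 higher and 1, 0, 2 and 3 lower genes. ZFP36L1 shares exonic bases with an unnamed gene on its own strand.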

How the data were processed

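RNA sequencing libraries were made with a stranded mRNA kit, per the labels' protocols. The submitters' processing notes name Trimmomatic 0.36, featureCounts (Subread 1.5.1), edgeR 3.12.1 and GRCh38; no source used here gives the aligner, annotation or strand setting. The authors deposited counts of reads per gene, not normalized, beside each gene's exonic length.

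Counts were tested here with edgeR 4.0.16 in R 4.3.3 (TMM; filterByExpr, minimum count 10 and total 15; 18368 genes; quasi-likelihood test, two-sided, Benjamini-Hochberg over all genes, threshold 0.05; 2 residual degrees of freedom). CPM is TMM-scaled, and TPM was computed from counts and exonic lengths. Alternatives used DESeq2 1.42.0, limma 3.58.1 (voom), other scalings and filters, a replicate block, a loess offset on GC content (available for 89.8% of genes tested) and leaving out each library. The scripts were tested on simulated data with 200 of 18368 genes changed. There 7.96% of calls were false, more than the threshold of 0.05 allows for. In the data 22.0% of genes were called, so the simulated rates need not hold there. Genes changed 1.5-, 2- and 4-fold were recovered in 22.8%, 56.2% and 71.4% of cases, so true changes can go uncalled.

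Members and lists were chosen with earlier results of these data known. Named are all members and, per list, the 2 called genes of smallest p in the main direction and 1 in the other; DUSP9, EGR1 and SPRY4 were named outside this rule, after their values were seen. 1 list entry, DUSP27, was not matched. The floor given for DUSP4 covers counting error only. The SE of a log2 fold change was derived from the quasi-likelihood F statistic and so also reflects the spread among libraries.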

Additional observations from a re-analysis of the deposited data

How the results depend on the processing

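Of the 10 members, 6 were called higher and 0 lower, and this count was unchanged with every other scaling, filter and tool tried, with the replicate block, with the GC offset, with both together, with a minimum fold of 1.5 and with halved counts (the last chosen after seeing the data). Over these settings DUSP5 stayed between 3.51 and 3.63 on the log2 scale and DUSP1 between 1.03 and 1.18. With a threshold of 0.01, 4 members were higher. Leaving out 1 library gave 3 to 6 members higher and 0 lower, with 3 without Spautin-1 replicate 1. Over all genes, 2112 were higher and 1933 lower, which became 1077 and 861 at the threshold of 0.01 and, with 1 library left out, 841 to 3062 and 545 to 2808. A lone library was then assumed to vary like the other group. With the replicate block DUSP1 stood at 1.12 and DUSP5 at 3.56; the deviations of same-numbered libraries were not correlated (r = -0.0015 across genes), so the numbers are not taken as pairs, and the block changed no call of a member. With it 2615 of all genes were higher and 2485 lower, 4 genes each of the JNK and p38 cascades were higher, and 4 of the other inhibitors and 2 of the transcription factors were lower. Depth limits what can be said of DUSP4, DUSP6 and DUSP14, which have 0 to 22 reads per library.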
